A study of Mus musculus with 6 samples.

Results

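The 42 genes described here carry out DNA replication: they license and open replication origins, unwind and copy DNA at the fork, or supply the deoxynucleotides from which DNA is built. They were chosen as a named list, by the gene symbols to which the probe sets of the array are annotated. This list and the other gene lists below were written with earlier results of these data known. Their shares set beside those of all genes are therefore descriptive. All 42 had a probe set annotated to them alone and above the signal filter, out of 18193 genes with such a probe set on the array and 13608 genes tested. The data come from 3 arrays of mouse embryoid bodies that held microspheres loaded with RA (retinoic acid, made from vitamin A and sensed by nuclear receptors) and 3 arrays of bodies that held control microspheres carrying the cell-tracking dye CellTracker Red. Any part of the dye in the differences was not tested. Embryoid bodies are the rounded aggregates in which embryonic stem cells differentiate in suspension. In both groups the cells were D3 mouse embryonic stem cells grown without LIF, the cytokine that keeps them undifferentiated, in rotary culture with gelatin-coated microspheres, and were sampled at 10 days. The study's design text speaks of triplicates without saying that they were separate cultures, so the p-values reflect only how these arrays varied, and that variation may be technical. The microsphere to cell ratios and rotary speeds varied, per the same text, and which of them each array had is not given. Only 1 cell line was used, and each array measured whole bodies, in which fewer cells of a type and less RNA per cell cannot be told apart.

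A cell prepares each origin by loading the ring-shaped MCM helicase onto DNA with the origin recognition complex, Cdc6 and Cdt1. Cyclin E and its kinase, with a second kinase, then recruit Cdc45 and the GINS complex, which turn the ring into the moving helicase, and polymerases, the sliding clamp PCNA and its loader RFC copy both strands behind it. Many of these genes are transcribed in the late G1 and S phases under E2F transcription factors, and stem cells of the early embryo, which cycle fast with a short G1 phase, are known for high levels of them.

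Replication genes were modestly higher in bodies with RA microspheres, most evenly in the MCM helicase, and the enzymes of nucleotide supply split. Of the 42 members, 17 rose, 1 fell and 24 did not pass the test (limma, Benjamini-Hochberg adjusted p under 0.05 over all 13608 genes). Called members, in either direction, were 42.9% of the 42, beside 30.0% of all genes tested. Higher calls were 40.5% of members and 14.3% of all genes tested, and lower calls 2.38% of members and 15.6% of all genes. The median member changed by 0.26 on the log2 scale (RA minus control), beside 0.01 over all genes. In 26 members (61.9%) RA and control arrays did not overlap, beside 44.0% of all genes. With the quantile normalization used, no member reached a 2-fold change, and the 17 rises lay between 1.20-fold and 1.93-fold. Mcm2 exceeded 2-fold with trimmed mean scaling (log2 difference 1.02). With no scaling Mcm2, Dut, Pole2, Mcm4 and Orc1 exceeded it (1.04 to 1.32), where the median of all genes was 0.26. The mean log2 level of the 42 members was 9.66, 9.65 and 9.71 on RA arrays 1, 2 and 3, against 9.41, 9.40 and 9.45 on the control arrays, while the mean of all genes was 7.85 to 7.86 on RA arrays and 7.88 on control arrays. Here a level is the quantile-normalized log2 of the signal plus 16. Members were thus brighter than the average gene, and genes of like brightness were not used as a comparison. With the signal filter raised to the 60th percentile, 17 of 41 members were higher and 1 lower. Of all 10423 genes tested there, 1906 were higher and 1954 lower.

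**Figure D1:**
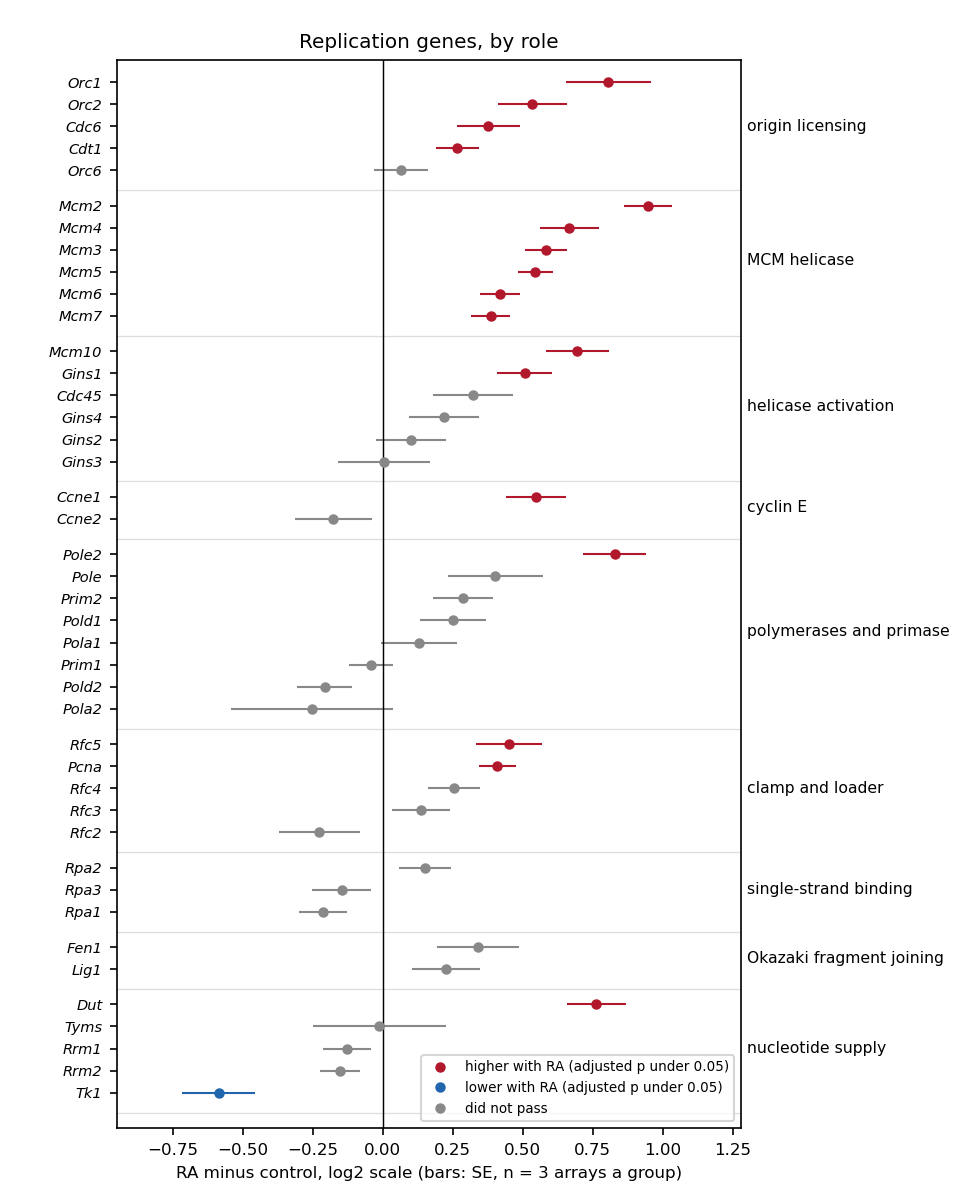
Change of each of the 42 members (RA minus control, log2 scale; points are fitted differences, bars their SE, 3 arrays a group), grouped by role, with colour for the test result. All 6 MCM genes lie to the right of 0, and Tk1 is the only member called lower, at -0.59.

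The arrays themselves differed in ways that bear on these values. The trimmed mean of the deposited signal ran from 170 to 191 on the RA arrays and from 108 to 172 on the control arrays, lowest on control array 3, which shows that the deposited arrays were on unequal scales. RNA integrity was read from probe sets at both ends of control transcripts: the Gapdh ratio, 3-prime over 5-prime, stood at 34.0 on RA array 1 and 3.07 and 4.70 on the other RA arrays, against 3.06 to 4.74 in controls, and the actin ratio was 4.35 to 7.42 with RA and 3.35 to 4.24 in controls. Without RA array 1 and control array 3 together, 19 members were higher and 1 lower. Of all calls, 47.8% were higher with the normalization used and 72.8% with no scaling, where the median of all genes moved to 0.26. With no scaling the member median was 0.57, which is 0.32 above that of all genes (0.25 above it with normalization), and 15 members were higher and 0 lower. Of the 11 members below 0 with normalization, Pola2 and Tk1 remained below 0 with no scaling and the other members were above it. The part of RNA integrity in the results was not tested.

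Marker genes of cell types differed between the groups as well. All 8 epiblast markers were higher with RA, among them Dnmt3b, Fgf5 and Pou3f1 (log2 differences of 3.89, 3.82 and 3.74), and the summed deposited signal of the 8 was 14162 to 15593 on RA arrays and 1123 to 2094 on control arrays. Utf1 passed only narrowly (0.94, limma adjusted p = 0.0499), and its groups overlapped. Of 8 heart muscle markers 0 were higher and 7 lower, with sums of 457 to 537 with RA and 7476 to 16525 in controls. Tnnt2, Myh6, Ryr2 and Tnni1 had RA means below the filter level of 5.74, and Nkx2-5 did not pass. Of 6 measured embryonic blood markers 4 were lower, with sums of 470 to 546 with RA and 11266 to 17152 in controls, and Alas2 had an RA mean below the filter level. Of 8 mesenchyme markers 1 was higher and 7 lower (sums of 2874 to 3381 with RA and 10948 to 19550 in controls), with the RA mean of Tagln and the control mean of Thy1 below that level. All 7 yolk sac endoderm markers were lower (7816 to 9344 with RA and 23056 to 33981 in controls), with the RA mean of Fgb below it. Their part in the replication results was not tested.

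Among the genes that license origins, 4 of 5 rose. Orc1, the largest subunit of the origin recognition complex, lay at 8.35, 8.24 and 8.29 on the log2 scale on RA arrays 1, 2 and 3, against 7.34, 7.36 and 7.75 on the control arrays, a difference of 0.81 ± 0.15 (SE, limma adjusted p = 0.00198). The groups did not overlap, and control array 3 was the highest control. This call rests on the brightest probe set: the second one had a difference of -0.25 and did not pass, and the mean of both gave 0.28 (adjusted p = 0.182). Orc2, another subunit, rose by 0.53 ± 0.12 (adjusted p = 0.00695), and all 3 of its probe sets passed as higher (0.53 to 0.82).

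The loading factors changed less. Cdc6, the ATPase that brings the MCM ring to the origin complex, lay at 9.28, 8.99 and 8.99 on the RA arrays, against 8.68, 8.72 and 8.73 on the control arrays, a difference of 0.38 ± 0.11 (limma adjusted p = 0.0252). RA array 1, the array with the high Gapdh ratio, was the highest of the 6, and the call was lost without it (0.28, adjusted p = 0.0926), as it was without control array 1 (0.36) or 2 (0.38). Cdt1, the partner of Cdc6 in loading, had a difference of 0.27 ± 0.08 (adjusted p = 0.0217), lost without RA array 1 (0.25) or 3 (0.25) or control array 2 (0.20), and also with the mean of its kept probe sets (0.16, adjusted p = 0.119), the second of which gave 0.06. With no scaling neither passed (adjusted p = 0.0960 and 0.0585), although their differences of 0.66 and 0.68 were larger and lay 0.40 and 0.42 above the median of all genes. Orc6, a small subunit of the complex, had overlapping groups and a difference of 0.07 ± 0.10.

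All 6 subunits of the MCM ring rose, and in each of them the 3 RA arrays lay above the 3 control arrays. Mcm2 had the largest difference of the 42 members with the brightest probe sets: its level was 10.72, 10.73 and 10.64 on RA arrays, against 9.77, 9.86 and 9.62 on control arrays, which is 1.93-fold (log2 difference 0.95 ± 0.09, limma adjusted p = 1.08e-05). The size and the rank of this rise depend on the probe set: the second one passed at 0.49, and the mean of both was 0.72, below Pole2 (0.83). Without control array 3 it was 0.89, below Orc1 (0.95). Mcm4 lay at 11.32, 11.21 and 11.26 with RA, against 10.67, 10.78 and 10.34 in controls, with control array 3 the lowest, a difference of 0.67 ± 0.11 (adjusted p = 0.000588). Mcm5 varied least: 11.92, 11.93 and 11.94 with RA, against 11.40, 11.36 and 11.40 in controls, a gap of 0.55 ± 0.06 (adjusted p = 7.03e-05) that is many times the spread within either group.

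The remaining ring subunits rose as well. Mcm3 rose by 0.58 ± 0.08 (limma adjusted p = 0.000139), Mcm6 by 0.42 ± 0.07 (adjusted p = 0.001) and Mcm7 by 0.39 ± 0.07 (adjusted p = 0.00138). In proportion the ring genes therefore rose between 1.31-fold (Mcm7) and 1.93-fold (Mcm2). Their probe sets pointed the same way: all 4 of Mcm7 passed as higher (0.39 to 0.63), as did both of Mcm4, both kept sets of Mcm6, 3 of 5 of Mcm3 and 2 of 3 of Mcm5, and the others of Mcm3 and Mcm5 were positive. All 6 stayed called under each of the 18 alternatives, from leaving out any array to no scaling, where their differences were 0.78 to 1.32.

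**Figure D2:**
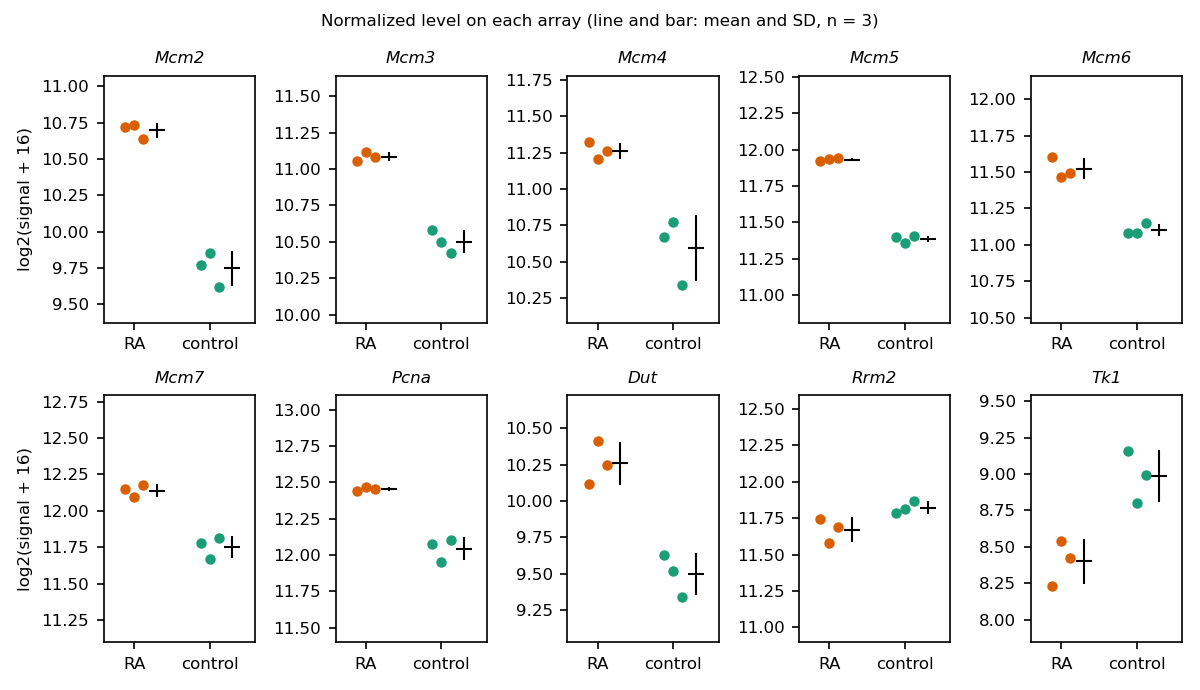
Normalized level, log2(signal + 16), on each array for the 6 MCM genes, Pcna, Dut, Rrm2 and Tk1; points are arrays, lines and bars the mean and SD of 3, and every panel spans the same log2 range. RA arrays lie above all control arrays in 8 panels, and below them in those of Rrm2, which did not pass, and Tk1, which did.

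Promoters of these genes are known targets of E2F factors, so the RefSeq promoters (GRCm38.p6, 250 bases before to 50 after each transcript start) were searched for the E2F-type letters TTTCCCGC, TTTCGCGC, TTTGCCGC and TTTGGCGC on both strands; these words can overlap one another. A promoter was matched for 34 of the 42 members (not for Ccne2, Gins1, Gins2, Gins4, Mcm4, Pole, Prim2 and Rfc2), with 40 promoters in all because some genes have several starts. One of the words stood in 13 of the 40 (32.5%), against 744 of all 32851 promoters (2.26%) and 3.66% of the 13944 promoters of genes tested. By result, 8 of 17 promoters of members that rose held a word, 5 of 22 promoters of members that did not pass, and 0 of 1 for Tk1. The letters CCAAT, on either strand, stood in 23 of the 40 (57.5%) and in 37.4% of all promoters. A match is a description of the sequence and not a binding site.

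To show where the words lie, the 200 bases before the start are given for 3 ring genes and Orc1, which rose and hold a word there, for Mcm2, which rose and holds none, and for Gins3, which holds one and did not pass. Each is written 5′ to 3′ on the strand of the gene, and the E2F-type words are in capitals.
Mcm5 (chr8:75109309-75109508, + strand): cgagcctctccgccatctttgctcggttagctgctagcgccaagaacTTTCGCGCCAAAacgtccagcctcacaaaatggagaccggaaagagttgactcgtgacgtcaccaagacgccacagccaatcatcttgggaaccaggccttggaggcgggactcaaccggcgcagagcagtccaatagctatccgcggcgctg
Mcm6 (chr1:128359706-128359905, - strand): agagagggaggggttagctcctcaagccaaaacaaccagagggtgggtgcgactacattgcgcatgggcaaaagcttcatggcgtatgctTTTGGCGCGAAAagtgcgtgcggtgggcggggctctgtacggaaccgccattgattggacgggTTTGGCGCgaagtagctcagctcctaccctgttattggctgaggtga
Mcm7 (chr5:138171884-138172083, - strand): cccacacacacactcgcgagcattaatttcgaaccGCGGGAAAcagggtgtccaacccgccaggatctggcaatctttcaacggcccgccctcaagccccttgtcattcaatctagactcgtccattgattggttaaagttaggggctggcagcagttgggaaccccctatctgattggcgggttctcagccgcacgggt
Orc1 (chr4:108579254-108579453, + strand): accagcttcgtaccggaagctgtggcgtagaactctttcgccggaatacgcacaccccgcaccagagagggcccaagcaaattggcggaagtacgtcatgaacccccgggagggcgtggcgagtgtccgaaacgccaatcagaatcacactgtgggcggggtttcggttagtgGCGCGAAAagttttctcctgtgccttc
Mcm2 (chr6:88898781-88898980, - strand): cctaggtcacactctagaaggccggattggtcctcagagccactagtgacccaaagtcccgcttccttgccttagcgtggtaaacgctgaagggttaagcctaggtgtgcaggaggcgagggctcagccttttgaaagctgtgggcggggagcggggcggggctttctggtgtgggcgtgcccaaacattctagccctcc
Gins3 (chr8:95633359-95633558, + strand): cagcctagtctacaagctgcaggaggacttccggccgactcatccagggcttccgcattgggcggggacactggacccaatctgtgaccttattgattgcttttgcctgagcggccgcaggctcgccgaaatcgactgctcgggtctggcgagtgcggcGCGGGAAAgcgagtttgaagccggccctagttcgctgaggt
In Mcm5 a pair of overlapping words begins 153 bases before the start, and in Mcm6 such a pair begins 110 bases before it and a single word 47 bases before it. The words of Mcm7, Orc1 and Gins3 begin 165, 27 and 41 bases before the start. Mcm7 has another RefSeq promoter, not shown, which holds none of the words.

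The factors that turn the loaded ring into a moving helicase were less uniform, and 2 of 6 rose. Mcm10, which helps start unwinding, lay at 8.91, 8.94 and 9.04 on RA arrays, against 8.32, 8.14 and 8.34 on control arrays, a difference of 0.70 ± 0.11 (limma adjusted p = 0.000706). Gins1, a subunit of the GINS complex, rose by 0.51 ± 0.10 (adjusted p = 0.00236), with the groups apart. Its partner subunits Gins2, Gins3 and Gins4 did not pass, at 0.10 ± 0.12, 0.0045 ± 0.16 and 0.22 ± 0.12, and their groups overlapped. For the brightest probe set of Gins3 the 95% interval of the difference ran from -0.35 to 0.36, so a rise as large as that of Mcm7 (0.39) lay just outside it. The second probe set of Gins3 gave 0.25 ± 0.22 without passing, so this bound does not hold for the gene as a whole. Cdc45, which with GINS completes the helicase, had groups that did not overlap (8.19 to 8.39 with RA and 7.75 to 8.17 in controls) but did not pass (0.32 ± 0.14, adjusted p = 0.118). Its sign depends on the probe set: the second one gave -0.68 (adjusted p = 0.0729 over all kept probe sets) and the mean of both -0.18, neither of which passed.

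The 2 cyclin E genes, which drive entry into S phase, differed in their values. Ccne1 lay at 9.67, 9.53 and 9.74 on RA arrays, against 9.08, 8.96 and 9.25 on control arrays, a rise of 0.55 ± 0.11 (limma adjusted p = 0.00246), and both of its probe sets passed. Ccne2 had a difference of -0.18 ± 0.14 (adjusted p = 0.374) with overlapping groups. The difference between the 2 genes was not itself tested.

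Of 8 genes for polymerases and primase only 1 rose. Pole2, the second subunit of polymerase epsilon, which copies the leading strand, lay at 9.21, 9.08 and 9.12 with RA, against 8.45, 8.20 and 8.27 in controls, a difference of 0.83 ± 0.11 (limma adjusted p = 2.00e-04). The catalytic subunit Pole gave 0.40 ± 0.17 (adjusted p = 0.102), with RA array 1 at 7.96 and RA arrays 2 and 3 at 8.45 and 8.46, and passed without RA array 1 (0.57, adjusted p = 0.0238). Pola2, a subunit of the polymerase alpha that primes each new strand, also had its lowest value on RA array 1: 7.05, 8.44 and 8.24 with RA, against 8.04, 8.30 and 8.15 in controls. Its difference was -0.25 ± 0.29, and without RA array 1 it was 0.18, neither of which passed. For these genes the array with the high Gapdh ratio therefore sets the size or the sign.

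The other polymerase genes did not pass. Prim1, the catalytic subunit of primase, was nearly level, at 10.07, 10.03 and 10.06 with RA, against 10.13, 10.09 and 10.06 in controls, and the 95% interval of its difference was -0.21 to 0.13. Prim2, the second primase subunit, and Pold1, the catalytic subunit of polymerase delta, which copies the lagging strand, had groups that did not overlap and differences of 0.29 ± 0.11 and 0.25 ± 0.12. The sign for Pold1 depends on the probe set: its second one gave -0.19, and the mean of both 0.03, neither of which passed. Pold2, an accessory subunit of polymerase delta, gave -0.21 ± 0.10, and Pola1, the catalytic subunit of polymerase alpha, gave 0.13 ± 0.14.

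PCNA, the ring that clamps polymerases to DNA, rose with little spread. Pcna lay at 12.44, 12.47 and 12.46 on RA arrays, against 12.08, 11.96 and 12.10 on control arrays, a difference of 0.41 ± 0.07 (limma adjusted p = 0.000742), and is read by 1 probe set. Of 4 subunits of the RFC loader that opens this clamp, Rfc5 rose (0.45 ± 0.12, adjusted p = 0.0127), a call lost without RA array 3 (0.38). Rfc4 and Rfc3 had groups apart without passing (0.25 ± 0.09, adjusted p = 0.0607, and 0.14 ± 0.11), though Rfc4 passed with the mean of its probe sets (0.28, adjusted p = 0.0370), and Rfc2 gave -0.23 ± 0.14 with overlapping groups.

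None of the 3 genes for replication protein A, which coats single-stranded DNA, passed. Rpa1, the largest subunit, was 11.62, 11.58 and 11.56 with RA, against 11.77, 11.65 and 11.98 in controls, all RA arrays being lower, with a difference of -0.21 ± 0.09 (limma adjusted p = 0.0860), and 0.19 with no scaling. Its second probe set passed as lower (-0.31, adjusted p = 0.0392 over 27022 probe sets), and the mean of both passed (-0.26), as did the brightest one without control array 2 (-0.29). Rpa2 and Rpa3 gave 0.15 ± 0.09 and -0.15 ± 0.11.

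Fen1 and Lig1, the nuclease and ligase that finish Okazaki fragments, did not pass, and their calls depended on the settings. Fen1 lay at 10.64, 10.36 and 10.43 with RA, against 9.89, 10.00 and 10.53 in controls (difference 0.34 ± 0.15, limma adjusted p = 0.105). Lig1 lay at 10.36, 10.24 and 10.30 with RA, against 9.92, 9.91 and 10.39 in controls (0.23 ± 0.12, adjusted p = 0.194). In both genes control array 3 stood well above the other control arrays, and without it the differences were 0.54 and 0.38, which passed (adjusted p = 0.00357 and 0.00777). With all 6 arrays Fen1 also passed with trimmed mean scaling (0.41, adjusted p = 0.0368) and with array weights (0.38, adjusted p = 0.0385), while Lig1 passed with neither.

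The enzymes that supply deoxynucleotides split: 1 rose, 1 fell and 3 did not pass. Dut, which breaks down dUTP to keep uracil out of DNA and yields the precursor of dTMP, lay at 10.12, 10.41 and 10.25 on RA arrays, against 9.63, 9.52 and 9.34 on control arrays, a 1.70-fold rise (log2 difference 0.76 ± 0.11, limma adjusted p = 2.40e-04). Tk1, the thymidine kinase that salvages thymidine, lay at 8.23, 8.54 and 8.42 with RA, against 9.16, 8.80 and 9.00 in controls, 1.50-fold lower (-0.59 ± 0.13, adjusted p = 0.00532). For neither gene did RA and control arrays overlap. With no scaling Tk1 did not pass (-0.32, adjusted p = 0.473), although it lay 0.58 below the median of all genes there, about as far as with normalization (0.60).

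Ribonucleotide reductase, which makes all 4 deoxynucleotides, did not follow the helicase. Rrm2, its small subunit, lay at 11.75, 11.58 and 11.69 with RA, against 11.78, 11.81 and 11.87 in controls, so that all RA arrays were slightly lower, and did not pass (-0.15 ± 0.07, limma adjusted p = 0.135). All 3 of its probe sets were negative without passing (-0.15 to -0.08). Rrm1, the large subunit, gave -0.13 ± 0.09, and the upper ends of the 95% intervals were 0.0039 for Rrm2 and 0.06 for Rrm1, both below every rise among the MCM genes. With no scaling the differences of Rrm1 and Rrm2 were 0.25 and 0.26, close to the median of all genes there. Tyms, which makes dTMP, was read here by a single dim probe set, since the other 3 annotated to it alone lay below the filter and one annotated to both Tyms and Tyms-ps was not used. It lay at 6.28 to 6.65 with RA and 6.25 to 6.71 in controls, and its interval of -0.54 to 0.51 leaves its change unknown.

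**Figure D3:**
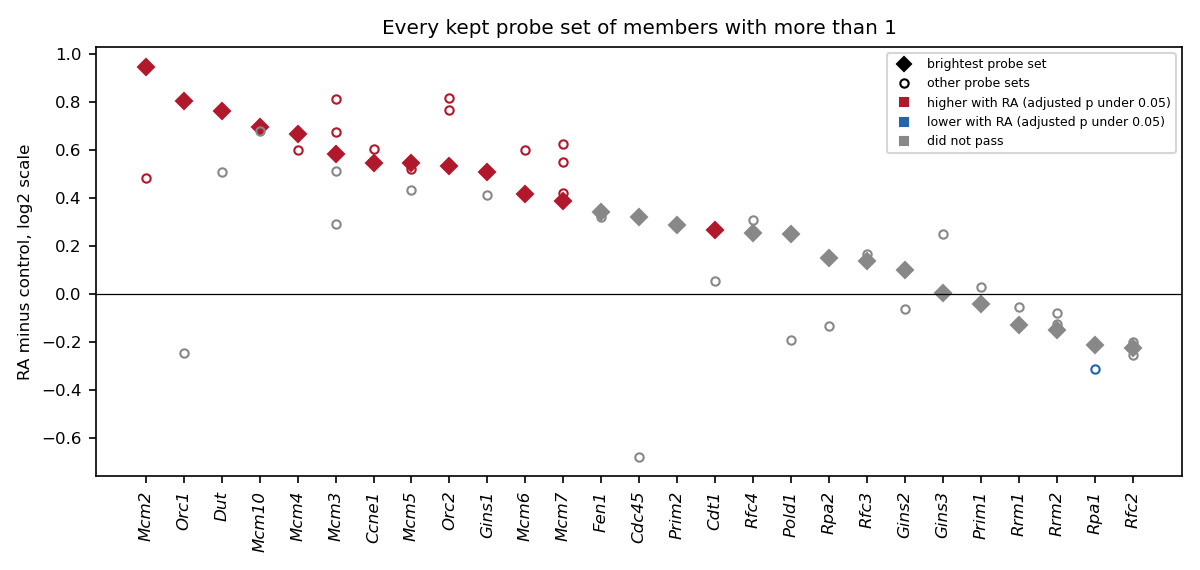
Change (RA minus control, log2 scale) of every probe set above the signal filter for the 27 members that have more than 1; diamonds are the brightest, used for the gene, circles the others, and colour is the test over all 27022 kept probe sets. No member has probe sets called in opposite directions, while 5 members (Orc1, Cdc45, Pold1, Rpa2 and Gins2) have the brightest above 0 and a second one below 0 that did not pass.

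Across all probe sets of the 42 members, 78 of 90 lay above the filter. Of these, 29 were called higher, 2 lower and 47 did not pass, and 0 members had calls in both directions. Higher calls were 37.2% of these 78 and 11.3% of all 27022 probe sets kept, and lower calls 2.56% and 11.1%. The lower ones belong to Tk1 and Rpa1. Among 18 alternatives, 13 of the 17 members that rose stayed higher in each: the 6 MCM genes, Ccne1, Dut, Gins1, Mcm10, Orc2, Pcna and Pole2.

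Tk1 lies on chromosome 11, where genes in general tended to be lower with RA. The 1116 genes tested there had a median of -0.20, with 72 higher and 320 lower, beside a median of 0.03 for genes on other chromosomes. The other members on it are Rpa1 (-0.21) and Pold2 (-0.21), which did not pass, and Cdc6, which rose. Rpa1 and Pold2 thus lay near the median of their chromosome, Tk1 below its interquartile range (-0.52 to 0.10) and Cdc6 above it. Of the 38 members elsewhere, 16 rose and 0 fell, with a median of 0.28. What sets chromosome 11 apart was not tested.

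**Figure D4:**
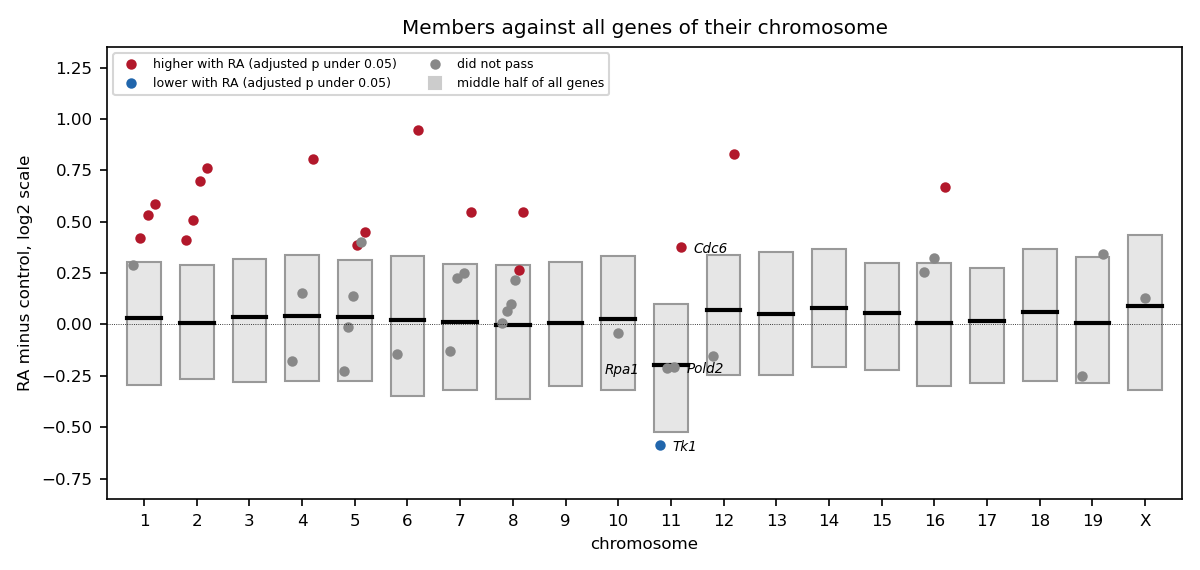
Change of each member (points, RA minus control, log2 scale) beside all genes tested on its chromosome (boxes span the interquartile range, lines are medians). Chromosome 11 has the lowest box, with its median at -0.20, and holds Tk1, Rpa1, Pold2 and Cdc6.

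Other genes of the same machinery gave similar counts, in a list that was also chosen with earlier results of these data known. Of 55 further replication and nucleotide genes 52 were measured, with a median of 0.25. Of these, 21 (40.4%) rose and 3 (5.77%) fell, beside 14.3% and 15.6% of all genes. Among those that control licensing and firing 6 of 13 rose and 0 fell: Gmnn, the inhibitor of Cdt1 (0.61 ± 0.07), Topbp1, which helps recruit Cdc45 (0.72 ± 0.09), and Dbf4, the activator of the Cdc7 kinase that fires origins (0.69 ± 0.09), together with Mcmbp, a binding partner of MCM proteins (0.74 ± 0.13), Orc5 (0.53) and Cdc7 (0.39). Among 20 fork and chromatin genes 6 rose and 0 fell: Rnaseh2b (0.39) and Pold3 (0.385), and, with the smallest p-values, the histone chaperone Asf1a (0.60 ± 0.08), Uhrf1, which maintains DNA methylation (0.49 ± 0.09), Rnaseh2a, a subunit of the enzyme that removes RNA from DNA (0.42 ± 0.11), and Top1, a topoisomerase (0.35 ± 0.10).

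In the nucleotide synthesis list 9 of 19 genes rose (47.4%) and 3 fell (15.8%), beside 14.3% and 15.6% of all genes. Samhd1, counted among the rises, breaks down deoxynucleotides instead of making them (0.47 ± 0.16, limma adjusted p = 0.0494). Ppat and Atic, the first and last enzymes of purine synthesis, rose by 0.90 ± 0.11 and 0.55 ± 0.10, and Mthfd1, which supplies one-carbon units to it, by 0.98 ± 0.12. Cad, which starts pyrimidine synthesis, rose by 0.55 ± 0.14. The falls were Nme1 (-0.36 ± 0.08) and Nme2 (-0.26 ± 0.06), kinases that convert nucleoside diphosphates, and Dtymk (-0.27 ± 0.08), which phosphorylates dTMP in the step after Tk1. These 3 falls rest on the scaling: all had positive differences with no scaling, and none passed with trimmed mean scaling either. Nme1 and Nme2 lie on chromosome 11, as do Pfas (0.34) and Shmt1 (0.13), which did not pass. With no scaling 14 of the 52 genes were higher and 0 lower. The limma adjusted p of the calls among these 52 genes ran from 6.88e-05 to 0.0494.

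Regulators of the G1 phase, upstream of replication, did not rise as a group. Of 27 measured 1 rose (3.7%, beside 14.3% of all genes) and 8 fell (29.6%, beside 15.6%), with a median of -0.07. The list mixes genes that drive the phase with genes that hold cells in it, so these pooled values give no direction for the phase. With no scaling 1 was higher and 2 lower, Ccnd3 and Cdkn1a, and the median was 0.24 (0.26 over all genes), while 1 was higher and 9 lower with trimmed mean scaling. Among 12 measured E2F and pocket protein genes 0 rose and 1 fell, the pocket protein gene Rbl2 (-0.84 ± 0.22, limma adjusted p = 0.0120). E2f4, E2f7 and Tfdp2 gave 0.35, 0.27 and 0.30 without passing. Mycn, a growth-promoting transcription factor of the embryo, was the rise (1.11 ± 0.09, adjusted p = 3.67e-06), and the D cyclins Ccnd3 (-1.19 ± 0.14) and Ccnd2 (-0.60 ± 0.10) and their kinase Cdk4 (-0.43 ± 0.09) fell. Of 7 genes for kinase inhibitors, which hold cells in G1, 0 rose and 4 fell. Cdkn1a (p21) had means of 9.58 ± 0.33 with RA and 11.23 ± 0.10 in controls (SD, n = 3 each), a log2 difference of -1.65 ± 0.14 (adjusted p = 5.64e-06), and Cdkn2b, Cdkn1c and Cdkn2c fell by 0.95, 0.64 and 0.59.

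**Figure D5:**
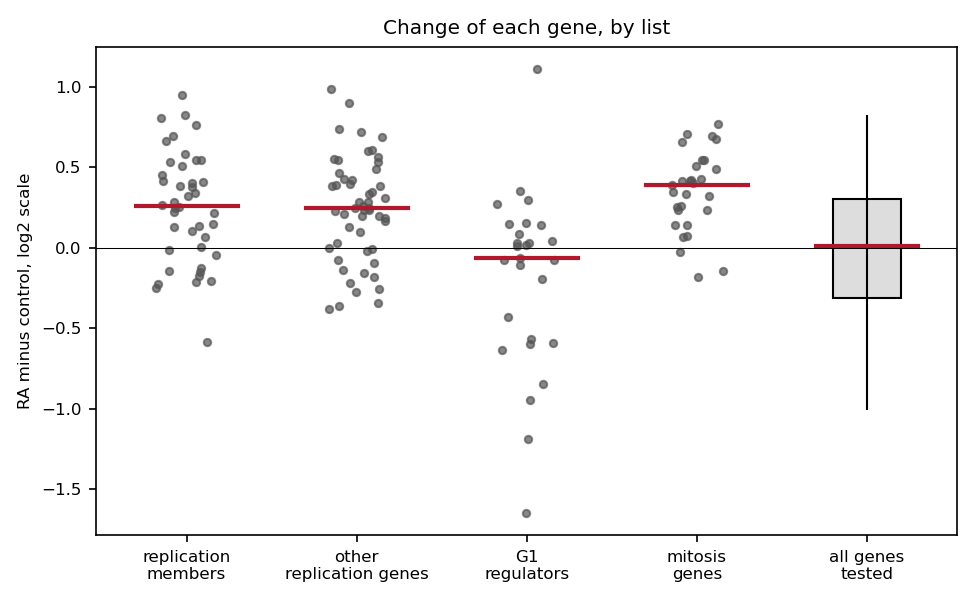
Change of each gene (points, RA minus control, log2 scale) in 4 lists, with their medians as red lines, beside all 13608 genes tested (box, the interquartile range; line, the 5th to 95th percentile). The medians are 0.26 for the replication members, 0.25 for other replication genes, -0.07 for G1 regulators, 0.39 for mitosis genes and 0.01 for all genes.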

How the data were processed

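For 6 Affymetrix mouse arrays the authors deposited 1 linear intensity per probe set (45101 in all), made with GCOS default settings per the labels, with no version given. The 64 array controls were left out. Values were turned into log2(intensity + 16) and quantile-normalized, because the deposited arrays were not scaled to each other; the pseudocount understates changes of dim genes. Gene names came from the array annotation (34945 probe sets with 1 symbol, 932 with several, which were not named, and 9160 with none), of which 34741 matched the GRCm38.p6 RefSeq table. Probe sets with a mean above the 40th percentile (log2 level 5.74) were kept, 27022 in all, and the brightest of each gene was used. The test was limma's (lmFit and eBayes with trend; version 3.58.1, R 4.3.3), two-sided, without covariates and with 3 arrays in each group, with Benjamini-Hochberg adjustment over 13608 genes at 0.05. SE and 95% intervals are those of the fit; the number of arrays limits their precision. The limma step was also run on simulated arrays with few changed genes and no differences in scale. That run cannot check the step under the conditions of these arrays. Every member is named, as are up to 4 genes with the smallest p in each role of the other lists and up to 3 markers of a cell type; other genes named here were chosen after their values were seen. Members and lists were chosen with earlier results of these data known. Alternatives covered scaling, pseudocount, filter, probe set, variance model, block and arrays left out.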

Additional observations from a re-analysis of the deposited data

How the results depend on the processing

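Among 18 alternatives, members called higher numbered 14 to 19, and no called member changed sign. With no scaling 0 members were lower, the member median was 0.57 and 653 genes in all were lower; Cdc6, Cdt1 and Tk1 did not pass there. With the mean of all kept probe sets 2 members were lower (Tk1 and Rpa1) and the member median was 0.22. Leaving out 1 array gave 15 to 19 members higher, 1 to 2 lower and a member median of 0.23 to 0.31, with 1487 to 1815 genes higher and 1733 to 1928 lower in all. The same-numbered arrays of the groups did not deviate together (correlations of -0.09, -0.01 and -0.03). These values gave no sign of pairing. With so few arrays in a group they cannot exclude that same-numbered arrays shared a culture or batch. With the replicate block 17 members were higher and 1 lower. Without a trend in the variance 14 members were higher, Cdc6, Cdt1 and Rfc5 not passing. Each setting adjusted over its own set of genes, and the filter at the 60th percentile left 41 members. The scaling alternatives for the other gene lists were chosen after seeing the data. Genes near the filter level, such as Tyms, carry the least information.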

Other observations

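Genes of mitosis, the phase after replication, were also higher in bodies with RA microspheres. Of 29 measured, 18 (62.1%) rose and 0 fell, beside 14.3% of all genes called higher, and the median difference was 0.39 on the log2 scale. With no scaling 13 were higher and 0 lower (median 0.67, beside 0.26 over all genes). Ccna2, the cyclin of S phase and early mitosis, had means of 10.33 ± 0.06 with RA and 9.56 ± 0.06 in controls (SD, n = 3 each), a difference of 0.77 ± 0.08 (SE, limma adjusted p = 3.69e-05). Cdca8, a subunit of the chromosomal passenger complex, rose by 0.70 ± 0.10, the spindle kinase Aurka by 0.67 ± 0.11 and the checkpoint kinase Bub1 by 0.49 ± 0.08. Birc5 and Top2a, both on chromosome 11, had differences of -0.18 and -0.14 and did not pass. Neither did Aurkb, also on chromosome 11 (0.07), or Ube2c on chromosome 2 (-0.03).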
